A study of Mus musculus with 8 samples.

Results

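The 10 genes described here encode the peroxide-removing peroxiredoxins Prdx1 to Prdx6, the thioredoxin pair Txn1 and Txnrd1, the peroxiredoxin repair enzyme Srxn1 and catalase, Cat. They were chosen by symbol with earlier results of these data known, so they are not a neutral sample of these systems. Further genes of the thioredoxin system, such as Txnrd3, are in a separate list below. All 10 were found among the 22165 genes of the count table and passed the filter on low counts. RNA came from C57BL/6 macrophages grown out of bone marrow over 7 days with M-CSF, a growth factor of this lineage, in 4 groups with 2 libraries each. Nrf2-/- (knockout) cells given dimethyl itaconate (DI, a membrane-permeable itaconate ester, 250 µM for 12 h), wild-type cells given DI, untreated knockout cells and untreated wild-type cells were compared. The knockout mice were bought from a breeder, and the knockout was carried by the mice, so the cells had also differentiated under it. The labels used here give neither age nor sex of the mice. They also do not tell whether the 2 libraries of a group stem from different mice or dishes. P-values therefore reflect library-to-library spread alone, and this may be technical.

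Peroxiredoxins are abundant enzymes that reduce hydrogen peroxide and organic peroxides with a reactive cysteine. In most family members this cysteine then forms a disulfide that thioredoxin reduces, and thioredoxin reductase recharges thioredoxin with electrons from NADPH. When peroxide oxidises the cysteine further, to a sulfinic acid, sulfiredoxin restores it, while catalase breaks down hydrogen peroxide in peroxisomes without a thiol partner. Macrophages make peroxide when they kill microbes. The transcription factor NRF2, which electrophiles such as DI release from its inhibitor KEAP1, is known to drive several of these genes through antioxidant response elements.

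Total counts ranged from 5554288 to 15680671 per library. Nfe2l2, the gene for NRF2 on chromosome 2 (mm10, 75675513 to 75704641), had 634 and 869 counts in knockout cells with DI, against 1901 and 4469 in wild-type cells with DI. It had 230 and 488 counts in untreated knockout and 2636 and 7022 in untreated wild-type libraries. Reads came from transcript 3′ ends, whose place relative to the deletion is unknown, so this checks the genotype labels only weakly. Each of 8 macrophage markers, among them Csf1r, Adgre1 and Lyz2, had at least 1001 counts in every library. Of 7 erythroid markers, the hemoglobin genes Hbb-bs and Hbb-bt and the heme synthesis gene Alas2 had no count. None of the 7 had more than 8 counts in a library. Prdx2 and Cat are abundant in red cells, and any red-cell part in their counts was not tested. Summed levels of 5 stromal markers were 42.9 to 47.7 CPM (counts scaled to library size) in the 4 knockout libraries and 85.6 to 128 CPM in the 4 wild-type libraries, with Lum at 0. Summed macrophage markers were 4320 to 4960 CPM in knockout DI libraries, 5560 to 5610 in wild-type DI, 6070 to 6120 in untreated knockout and 5530 to 5800 in untreated wild-type libraries. Lyz2 was the largest part of each sum, so similar sums do not show that single markers were alike. Before scaling, Itgam had 1676 and 2824 counts in wild-type DI and 7980 and 7632 in untreated wild-type libraries. Lyz2 had 12923 and 25248 against 17152 and 22660. Total counts of these libraries were 6739038 and 11391531 with DI and 11217220 and 15680671 untreated. Summed neutrophil markers were 246 to 303 CPM in knockout DI, 250 to 322 in wild-type DI, 266 to 309 in untreated knockout and 373 to 383 in untreated wild-type libraries. Those of dendritic cells, lymphocytes, and mast cells with basophils summed to at most 11.4, 2.33 and 2.33 CPM in any library. The part of these marker differences in the results below was not tested, and in bulk RNA fewer cells of a type cannot be told apart from less RNA per cell.

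Upstream sequence is shown for the 3 genes in which a form of the antioxidant response element core was found and for Cat, which had no match and rose 12.2-fold with DI in wild-type cells. NRF2 with a small MAF partner binds elements of this kind. RefSeq promoter windows (GRCm38.p6) were found for 9 of the 10 genes, and Prdx6 had none. In the 250 bases before each of their 11 transcript starts, TGACNNNGC was searched on both strands, and TGAGNNNGC was added after the sequences had been seen. The stretches for Prdx1 (chr4:116685349-116685543, plus strand), Srxn1 (chr2:152105274-152105515, plus strand) and Cat (chr2:103485161-103485403, minus strand) run 5′ to 3′ on the gene's strand up to the first annotated exon base, with matches in capitals. Of Txnrd1, which has 3 RefSeq starts, 30 bases around the match at the second start are given (chr10:82859104-82859133, plus strand), since an annotated exon covers that site.
Prdx1: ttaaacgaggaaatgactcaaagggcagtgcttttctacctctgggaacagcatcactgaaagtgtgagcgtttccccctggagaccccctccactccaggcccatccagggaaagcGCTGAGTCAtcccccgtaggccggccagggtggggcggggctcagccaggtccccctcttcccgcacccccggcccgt
Srxn1: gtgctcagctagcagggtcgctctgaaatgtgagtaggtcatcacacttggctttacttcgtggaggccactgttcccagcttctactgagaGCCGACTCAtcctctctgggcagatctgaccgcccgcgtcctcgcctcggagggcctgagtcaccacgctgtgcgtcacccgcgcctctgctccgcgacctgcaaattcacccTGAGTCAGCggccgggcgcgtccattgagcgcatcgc
Txnrd1: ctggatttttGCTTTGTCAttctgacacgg
Cat: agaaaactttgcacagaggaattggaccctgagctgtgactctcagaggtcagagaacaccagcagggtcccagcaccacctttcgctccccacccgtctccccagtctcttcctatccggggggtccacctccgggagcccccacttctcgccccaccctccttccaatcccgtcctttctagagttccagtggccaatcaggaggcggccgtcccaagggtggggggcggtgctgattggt

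Prdx1 held TGACTCAGC on the minus strand, at position -133 relative to the transcript start, and Txnrd1 held TGACAAAGC on the minus strand at -92 from its second start. Srxn1 held TGAGTCGGC on the minus strand at -158 and TGAGTCAGC on the plus strand at -45 from its start. The Prdx1 letters and those nearer to the Srxn1 start contain the AP-1 motif, TGACTCA or its reverse complement TGAGTCA, so they overlap with another factor's site. Among all 27025 genes with such windows, 11.5% held TGACNNNGC, 16.3% held TGAGNNNGC and 25.7% held either form. Of the 9 genes with a window, 2 held the first form and 3 held either, too few to read against those shares. A match is a description of the sequence and does not show binding, and elements farther from the start were not searched.

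On mm10 (GENCODE M21) the peroxiredoxin genes lie apart, Prdx1 at chr4:116685544-116700822, Prdx2 at chr8:84969587-84974834, Prdx3 at chr19:60864051-60874556, Prdx4 at chrX:155323918-155340754, Prdx5 at chr19:6906697-6910106 and Prdx6 at chr1:161240112-161251219. Txn1 is at chr4:57943373-57956411, Txnrd1 at chr10:82833951-82897712 and Srxn1 at chr2:152105516-152111376. Srxn1 and Cat share chromosome 2 with the targeted Nfe2l2, at 76.4 and 27.8 megabases from it.

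**Figure D1:**
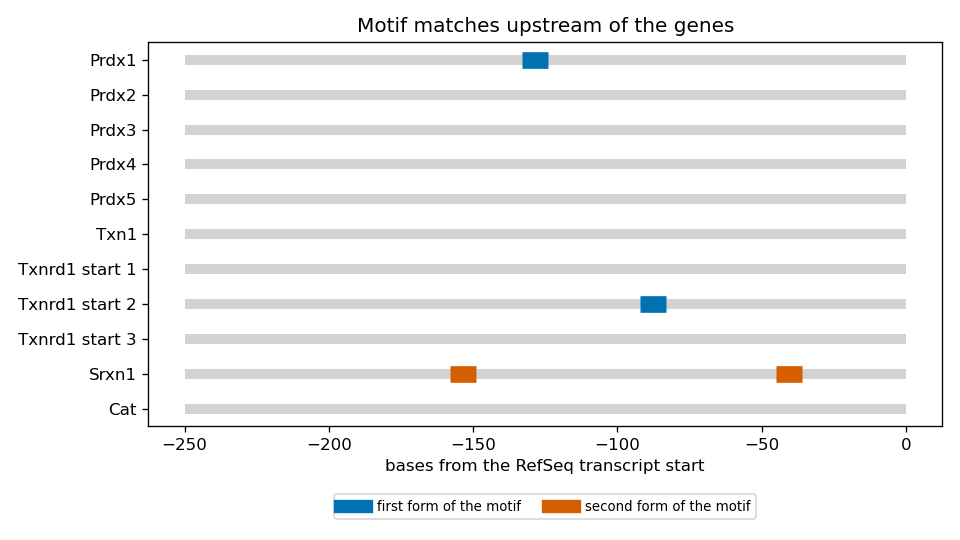
Positions of both motif forms in the 250 bases before each RefSeq transcript start of 9 genes; the x axis gives bases from the start, grey bars are the windows and coloured blocks the matches. Matches lie in Prdx1, in Srxn1 and before the second start of Txnrd1.

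DI raised 7 of the 10 genes in wild-type macrophages and the others did not pass the test. Levels are given in CPM scaled by TMM library sizes, changes as log2 fold changes ± standard error of the fit, and a gene is called at a Benjamini-Hochberg adjusted p under 0.05 in edgeR's quasi-likelihood test over 11079 genes. The same test called 6.51% of all genes higher and 8.68% lower (721 and 962 genes; 557 and 1208 when total counts replaced TMM scaling). The median change of the 10 genes was 1.78 on the log2 scale, against -0.02 over all genes tested. Prdx1, Prdx6, Txn1, Txnrd1, Srxn1 and Cat were called in all 14 alternative fits and Prdx5 in 6 of them. In 8 of the 10 both treated libraries lay above both untreated ones, as they did in 28.6% of all genes tested.

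Prdx1, the main cytosolic peroxiredoxin, had 40700 and 38300 CPM in wild-type DI libraries, against 2770 and 2070 CPM in untreated wild-type libraries. Both treated libraries lay far above both untreated ones, and the change was 4.03 ± 0.25, or 16.3-fold, with edgeR adjusted p = 3.02e-06. Prdx1 alone took 3.85% of all counts in one wild-type DI library (exact 95% binomial interval 3.835 to 3.864%) and 3.61% in the other (3.596 to 3.618%). In untreated wild-type libraries its share was 0.282% (0.2793 to 0.2855%) and 0.204% (0.2016 to 0.2061%). These intervals cover counting error only. The processed pseudogenes Gm7204 and Gm21399 match Prdx1 mRNA at 97.5 and 98.3% over 597 bases and have no row in the count table used here, so how reads shared with them were treated is uncertain.

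Prdx6, which reduces peroxidised phospholipids with glutathione in place of thioredoxin, had 188 and 169 CPM with DI and 33.4 and 32.7 CPM untreated. It rose 5.4-fold, by 2.43 ± 0.22 on the log2 scale (edgeR adjusted p = 2.98e-05), and the groups did not overlap. Prdx5, a peroxiredoxin found in mitochondria, peroxisomes and cytosol, had 336 and 337 CPM with DI and 223 and 192 CPM untreated. Its rise was small, 0.70 ± 0.21 at edgeR adjusted p = 0.042. It was no longer called without any of the 4 wild-type or the 2 untreated knockout libraries (edgeR adjusted p = 0.076 to 0.214), with total-count scaling (0.0737) and in a fit of the wild-type libraries alone (0.0858). Prdx5 also shares 409 exon bases with Trmt112 on the opposite strand, and the libraries kept the strand, but the sources used here do not say whether counting used it.

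The other peroxiredoxins did not pass the test in wild-type cells. Prdx2, a cytosolic form, had 94.7 and 118 CPM with DI and 100 and 87.3 CPM untreated, with a log2 difference of 0.18 (95% interval -0.29 to 0.65). Its exons share 173 bases with Junb and 177 with Rnaseh2a on the opposite strand, and the pseudogene Tdpx-ps1 matches it at 96.3% over 597 bases, so its counts are uncertain to that extent. Prdx4, the form of the endoplasmic reticulum, had 33.0 and 32.8 CPM with DI and 35.3 and 29.2 CPM untreated, a log2 difference of 0.03 (-0.45 to 0.51). The treated values of both genes overlapped the untreated ones. Prdx3, the mitochondrial form, had 51.2 and 37.0 CPM with DI and 36.3 and 23.5 CPM untreated. Both treated libraries lay above both untreated ones, and the log2 difference of 0.56 had an interval of -0.01 to 1.12 (edgeR adjusted p = 0.17).

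The recycling enzymes rose with Prdx1. Srxn1, which repairs overoxidised peroxiredoxins, had 582 and 577 CPM in wild-type DI libraries, against 52.2 and 47.9 CPM in untreated ones. The increase was 11.6-fold, 3.53 ± 0.27 on the log2 scale, with edgeR adjusted p = 8.86e-06. Txn1, the cytosolic thioredoxin, had 856 and 753 CPM with DI and 255 and 256 CPM untreated, 3.15-fold higher (1.65 ± 0.23, edgeR adjusted p = 0.000573). The pseudogene Txn-ps1 matches its mRNA at 95.8% over 309 bases. Txnrd1, the cytosolic thioredoxin reductase, had 675 and 688 CPM with DI, while the untreated libraries differed from each other at 106 and 257 CPM. Its change of 1.91 ± 0.34 (edgeR adjusted p = 0.00272) was 2.69 without the untreated library at 257 CPM and 1.41 without the other, and it was called in both cases.

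Cat, on chromosome 2 at 103453849 to 103485160 of mm10, had 686 and 639 CPM in wild-type DI libraries, against 58.8 and 49.9 CPM in untreated ones. The groups stood far apart, with a 12.2-fold rise of 3.61 ± 0.27 on the log2 scale and edgeR adjusted p = 6.05e-06. The mitochondrial share of counts, a sign of cell and RNA quality, was 1.59 and 2.1% in wild-type DI libraries and 1.3 and 1.37% in untreated ones. It was 1.02 and 1.54% in knockout DI libraries, both below both wild-type DI libraries, and 1.42 and 1.49% in untreated knockout libraries. Its part in the results within and between genotypes was not tested.

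**Figure D2:**
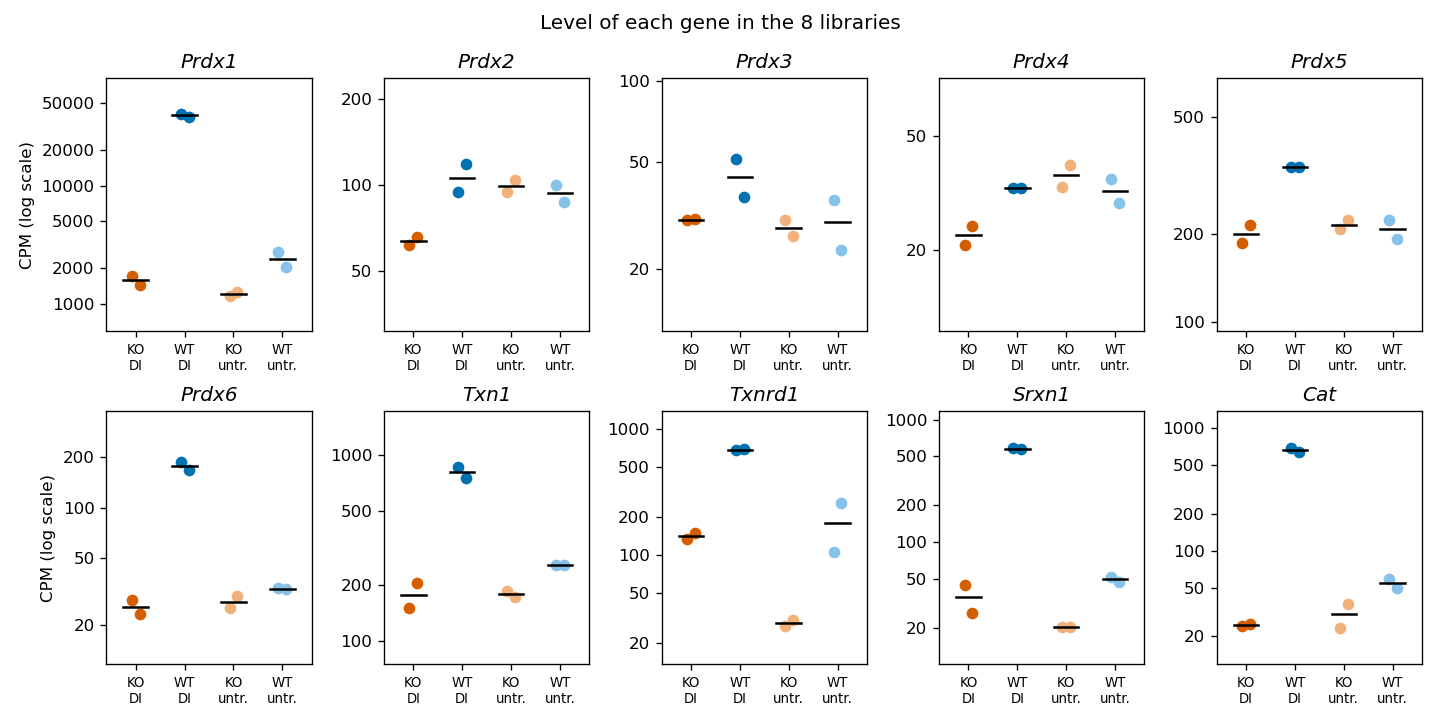
Level of each of the 10 genes in CPM on a log axis in knockout DI, wild-type DI, untreated knockout and untreated wild-type libraries; points are the 2 libraries of a group and lines their mean. Prdx1, Prdx6, Txn1, Srxn1 and Cat stand highest in wild-type DI libraries and stay low in knockout DI libraries. Txnrd1 also stands highest in wild-type DI libraries, and it is higher with DI in both genotypes.

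In knockout macrophages DI raised only Txnrd1 among the 10 genes, while 4.49% of all genes tested were called higher and 4% lower. At an unadjusted p under 0.05, 2 of the 10 were higher and 2 lower, against 13.9 and 12.5% of all genes tested, and DESeq2 called 2 of the 10 higher, against 6.39% of all genes. Their median log2 change was -0.06, against 0.00 over all genes tested. Txnrd1 had 135 and 151 CPM in knockout DI libraries, against 27.3 and 30.6 CPM in untreated knockout libraries. Both treated libraries lay above both untreated ones, with a 4.93-fold rise of 2.30 ± 0.35 and edgeR adjusted p = 0.00415. The size held without either untreated knockout library, at 2.22 and 2.39, but the call was lost (edgeR adjusted p = 0.0583 and 0.0504).

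Srxn1 had 44.7 and 26.6 CPM in knockout DI libraries and 20.3 CPM in both untreated knockout libraries. The log2 difference of 0.81 (95% interval 0.24 to 1.38) did not pass in edgeR (adjusted p = 0.0765), while DESeq2 called it (adjusted p = 0.0415), as did edgeR without the knockout DI library at 26.6 CPM (1.14, adjusted p = 0.0256) and with no low-count filter (0.0299). Prdx1 had 1740 and 1440 CPM with DI and 1170 and 1250 CPM untreated in knockout cells, a difference of 0.39 (-0.10 to 0.88). Both treated libraries were above both untreated ones for Srxn1 and Prdx1, as in 29.1% of all genes tested. Prdx2 had 61.5 and 65.7 CPM with DI and 94.8 and 104 CPM untreated, and Prdx4 had 20.8 and 24.2 CPM with DI and 33.2 and 39.6 CPM untreated. Both treated libraries were below both untreated ones for each, as in 29.3% of all genes tested, at -0.64 (-1.12 to -0.17) and -0.70 (-1.19 to -0.21) on the log2 scale, but neither passed (edgeR adjusted p = 0.0888 and 0.0775).

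The remaining genes overlapped between treated and untreated knockout libraries. Cat had 24.1 and 25.2 CPM with DI and 23.6 and 36.8 CPM untreated, a log2 difference of -0.30 (95% interval -0.84 to 0.24). Prdx6 had 28.1 and 23.3 CPM with DI and 25.4 and 29.9 CPM untreated, a difference of -0.11 (-0.59 to 0.37). For both, the interval ended far below the wild-type change. Txn1 had 149 and 205 CPM with DI and 186 and 172 CPM untreated, at -0.01 (-0.50 to 0.48). Prdx5 had 186 and 214 CPM with DI and 207 and 222 CPM untreated, at -0.10 (-0.56 to 0.35), and Prdx3 had 30.4 and 30.8 CPM with DI and 30.4 and 26.5 CPM untreated, at 0.11 (-0.47 to 0.68).

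The DI effect itself differed between genotypes for 5 of the 10 genes, all with a smaller effect in knockout cells. The difference, knockout minus wild type, was negative for these 5. Over all genes tested it was called negative in 2.59% and positive in 4.96%. The negative share also holds any genes that DI lowered more in knockout cells, so it is not the share with a smaller effect. The difference of the DI effects, knockout minus wild type, was -3.91 ± 0.36 for Cat and -3.64 ± 0.33 for Prdx1 on the log2 scale, both with edgeR adjusted p = 0.000226. It was -2.72 ± 0.37 for Srxn1 (edgeR adjusted p = 0.00177), -2.54 ± 0.31 for Prdx6 (0.0013) and -1.67 ± 0.32 for Txn1 (0.0102). The call of Txn1 was lost without untreated knockout replicate 1 (-1.61, edgeR adjusted p = 0.0558), and the other 4 kept theirs in all 13 alternative fits. For Txnrd1 the difference was 0.39 ± 0.47 with a 95% interval of -0.62 to 1.40, so a difference in its DI effect was not detected (edgeR adjusted p = 0.622). That estimate rests on the untreated wild-type libraries, being 0.89 without the one at 106 CPM and -0.39 without the one at 257 CPM, and it was called in neither fit. Differences for Prdx2 (-0.82), Prdx5 (-0.80) and Prdx4 (-0.73) did not pass, at adjusted p of 0.115, 0.113 and 0.168 in edgeR. Neither did that of Prdx3, at -0.45 (edgeR adjusted p = 0.464).

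**Figure D3:**
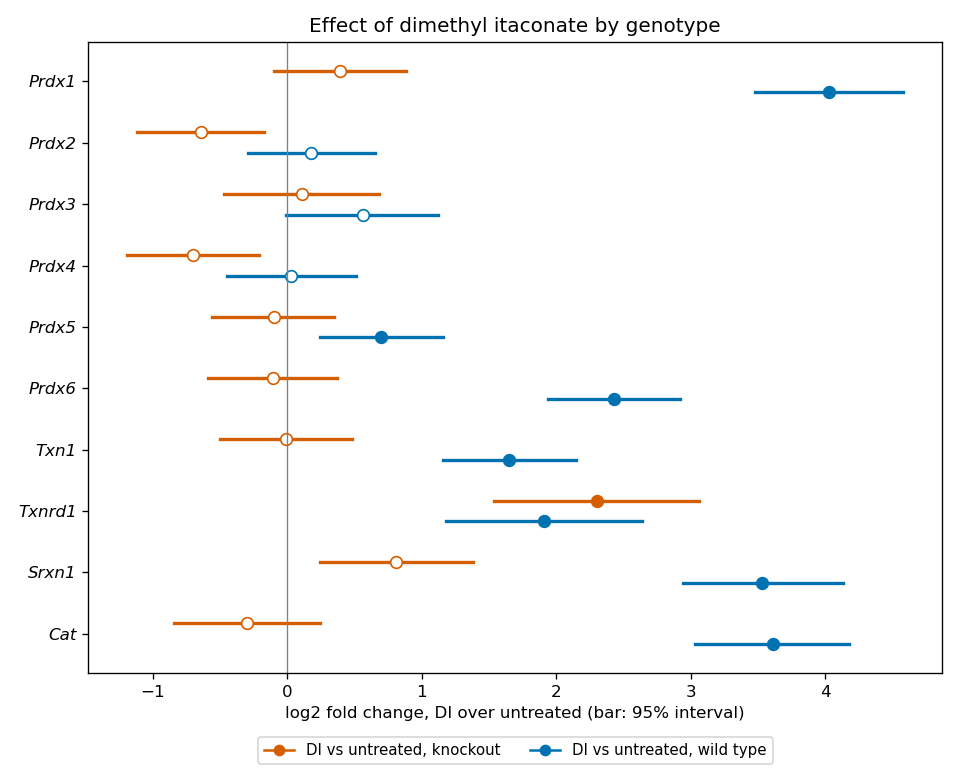
Log2 fold change of each gene with DI over untreated in knockout cells (upper bar of each pair) and wild-type cells (lower bar); points are estimates, bars 95% intervals, and filled points passed the test. The intervals of Prdx1, Prdx6, Txn1, Srxn1 and Cat lie apart between genotypes, and those of Txnrd1 overlap at 2.30 and 1.91.

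Under DI, 8 of the 10 genes were lower in knockout than in wild-type cells, against 9.74% of all genes called lower and 11.4% called higher (1079 and 1266 genes; 849 and 1621 with total counts in place of TMM scaling). The median log2 difference was -2.22 for the 10 genes and 0.01 over all genes tested. This comparison shares the wild-type DI libraries with the wild-type comparison above. Mean levels were 24.7 ± 0.783 CPM for Cat in knockout DI cells and 663 ± 32.9 CPM in wild-type DI cells (SD, n = 2 each), 26.9-fold lower in knockout (log2 -4.75 ± 0.28, edgeR adjusted p = 8.95e-07). Prdx1 averaged 1590 ± 213 CPM in knockout DI cells and 39500 ± 1740 CPM in wild-type DI cells, 24.9-fold lower in knockout (-4.64 ± 0.26, edgeR adjusted p = 5.82e-07). Srxn1 averaged 35.7 ± 12.8 and 580 ± 3.46 CPM in knockout and wild-type DI cells, a log2 difference of -4.02 ± 0.28 (edgeR adjusted p = 2.11e-06). In all 10 genes both knockout libraries lay below both wild-type ones, as they did in 30.5% of all genes tested, with the opposite order in 30.1%.

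Prdx6 (-2.80 ± 0.23), Txnrd1 (-2.25 ± 0.34) and Txn1 (-2.18 ± 0.23) were also lower in knockout DI cells, with edgeR adjusted p of 7.15e-06, 0.000835 and 6.69e-05. Txnrd1 with DI reached 143 ± 11.8 CPM in knockout cells, against 681 ± 9.4 CPM in wild-type cells (SD, n = 2 each). Its level in knockout cells with DI lay between those of the 2 untreated wild-type libraries, 106 and 257 CPM. Prdx5 (-0.75, edgeR adjusted p = 0.0252) and Prdx2 (-0.74, 0.0322) passed with small differences. Both calls were lost in a fit of the 4 DI libraries alone (adjusted p = 0.0763 and 0.0791) and without knockout DI replicate 1 (0.129 and 0.128), wild-type DI replicate 2 (0.0534 and 0.136) or either untreated knockout library (0.0507 to 0.0593). Prdx5 also lost its call without wild-type DI replicate 1 (0.0537), and Prdx2 without knockout DI replicate 2 (0.074) and with total-count scaling (0.061). Prdx4 (-0.55, interval -1.04 to -0.06) and Prdx3 (-0.52, -1.09 to 0.05) did not pass, at adjusted p = 0.103 and 0.173.

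Without treatment, Txnrd1 and Srxn1 were lower in knockout macrophages, while 0.605% of all genes tested were called, 0.524% lower and 0.0812% higher. Txnrd1 averaged 28.9 ± 2.34 CPM in untreated knockout cells and 181 ± 107 CPM in untreated wild-type cells (SD, n = 2 each), 6.26-fold lower in knockout (-2.65 ± 0.35, edgeR adjusted p = 0.00384). The difference was -3.15 without the wild-type library at 106 CPM and -1.87 without the one at 257 CPM, called in both, but it lost its call without either untreated knockout library (adjusted p = 0.105 and 0.0847). Srxn1 stood at 20.3 CPM in both knockout libraries and at 52.2 and 47.9 CPM in wild-type libraries, a log2 difference of -1.30 ± 0.26. Its edgeR adjusted p of 0.0499966 lay just under the threshold, and it was lost with RLE scaling (0.0535) and without any of the 4 untreated libraries or either wild-type DI library (0.0631 to 0.366).

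Prdx1 averaged 1210 ± 52.3 CPM in untreated knockout cells and 2420 ± 494 CPM in untreated wild-type cells, a log2 difference with a 95% interval of -1.49 to -0.50. It did not pass in edgeR (adjusted p = 0.0778), while DESeq2 called it (0.0058), as did edgeR with no low-count filter (0.00232). Cat had 23.6 and 36.8 CPM in knockout and 58.8 and 49.9 CPM in wild-type libraries, at -0.84 (95% interval -1.38 to -0.30; edgeR adjusted p = 0.188). Txn1 had 186 and 172 CPM in knockout and 255 and 256 CPM in wild-type libraries (-0.52, -1.01 to -0.03; adjusted p = 0.435), and Prdx6 had 25.4 and 29.9 CPM in knockout and 33.4 and 32.7 CPM in wild-type libraries (-0.25, -0.73 to 0.23). For these 4 genes, as for Txnrd1 and Srxn1, both knockout libraries were below both wild-type ones, which held for 21.7% of all genes tested, with the opposite order in 21.8%. At an unadjusted p under 0.05, 5 of the 10 were lower and 0 higher, against 7.3 and 3.34% of all genes tested. Prdx2, Prdx3, Prdx4 and Prdx5 overlapped between genotypes, with differences from -0.07 for Prdx3 to 0.18 for Prdx4.

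**Figure D4:**
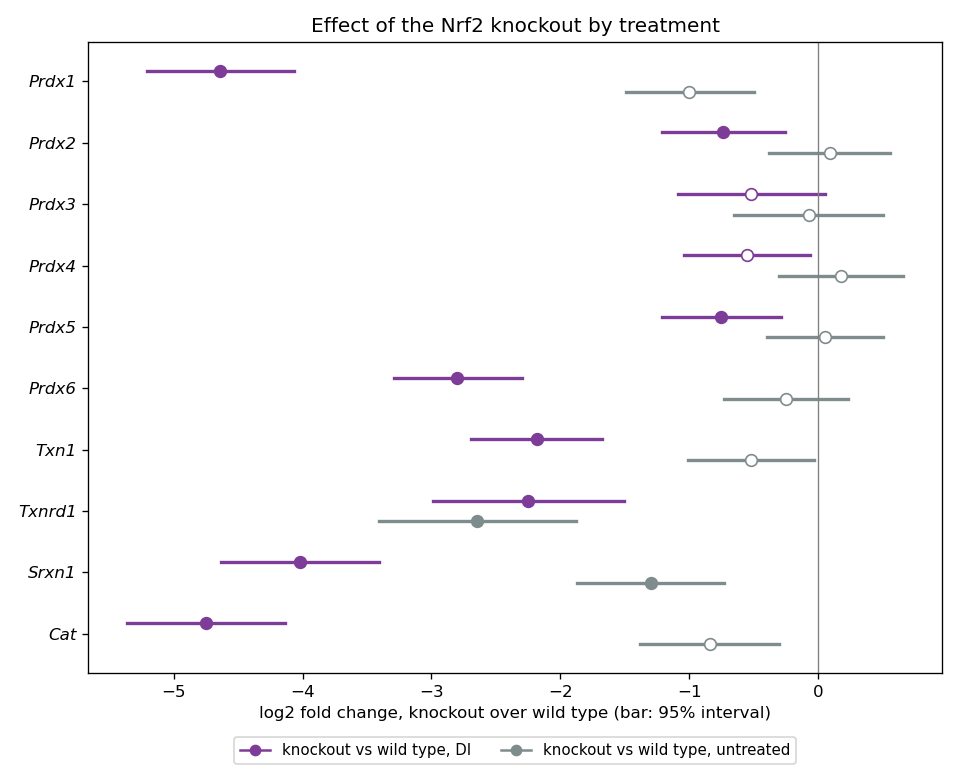
Log2 fold change of each gene, knockout over wild type, in DI-treated cells (upper bar of each pair) and untreated cells (lower bar); points are estimates, bars 95% intervals, and filled points passed the test. Txnrd1 is lower in knockout cells by similar amounts in both (-2.25 and -2.65), while Cat stands at -4.75 with DI and -0.84 untreated.

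Across the 8 libraries the 10 genes differed in how closely they followed each other. Prdx1 followed Prdx6, Srxn1 and Cat with Pearson r = 0.99 and Txn1 with 0.98, all of log2 CPM, but Prdx2 with 0.47 and Prdx4 with 0.21. Prdx2 and Prdx4 followed each other (0.91). These values describe 8 libraries of 4 groups, in which the 2 wild-type DI libraries lie far above the others for Prdx1, Prdx6, Txn1, Srxn1 and Cat, and carry no test. Outside the 10 genes, those most like Prdx1 among 7471 genes with a mean of at least 10 CPM were Pgd (0.999) and Glul (0.998), which encode an NADPH-producing enzyme of the pentose phosphate pathway and glutamine synthetase, and the lectin Clec4n (0.996). For Prdx6 they were the pentose phosphate enzyme Taldo1 (0.998), Ralgps1 (0.996) and the carbonyl reductase Cbr3 (0.996). For Cat they were Clec4n (0.996), the NADPH-producing Idh1 (0.995) and Taldo1 (0.993), for Srxn1 Mindy1 (0.998), Tfec (0.997) and Ednrb (0.995), and for Txn1 Tmem165 (0.998), Pkm (0.994) and Abr (0.994). Txnrd1 stood closest to Zfp503 (0.990), Ppfibp1 (0.971) and Cgnl1 (0.962). For Prdx5 the nearest were Ezr and mt-Co3 (0.991 each) and Fkbp1a (0.990), for Prdx2 Mrps24 (0.981), Cd68 (0.974) and Glipr1 (0.970), for Prdx3 Hnrnpll (0.967), Hnrnpa1 (0.945) and Abhd17c (0.944), and for Prdx4 Tpst1 (0.971), Cd300c2 (0.969) and Ext2 (0.968).

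Other genes of the thioredoxin network moved in both directions. Of 33 tested genes of 35 listed, which hold further thioredoxin-fold proteins, glutaredoxins, methionine sulfoxide reductases, sestrins and ribonucleotide reductase, 4 rose and 3 fell in wild-type DI cells (21.2% called, against 15.2% of all genes tested, in edgeR). The median log2 change was 0.14, against -0.02 over all genes. Msrb1, a selenoprotein that repairs oxidised methionine, rose by 1.18 ± 0.21 (edgeR adjusted p = 0.00285) and Arrdc4, a relative of the thioredoxin inhibitor Txnip, by 1.94 ± 0.24 (0.000274). The sestrin Sesn1 fell by 1.89 and the mitochondrial Msrb2 by 1.52. Without wild-type DI replicate 2, 2 rose and 2 fell.

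In knockout DI cells 3 of these 33 rose and 2 fell (15.2% called, against 8.48% of all genes tested; median 0.11). The thioredoxin-like Txnl1 rose by 1.45 ± 0.28 (edgeR adjusted p = 0.0102) and the thioredoxin reductase Txnrd3 by 1.40 ± 0.32 (0.0201), whereas Txnip fell by 1.11 ± 0.21 (0.00973) and the glutaredoxin Glrx by 1.13 ± 0.31 (0.0462). None was called without untreated knockout replicate 1, 1 without untreated knockout replicate 2 or knockout DI replicate 1, and 3 without knockout DI replicate 2. The DI effect differed between genotypes for 3 of the 33 (9.09%, against 7.55% of all genes tested), with Msrb1 at -1.73 ± 0.30 and Arrdc4 at -1.55 ± 0.35 (knockout minus wild type), and the ribonucleotide reductase subunit Rrm1 at 1.93 ± 0.42. Only Msrb1 was called without untreated knockout replicate 2 or untreated wild-type replicate 1. Under DI, 6 were higher and 3 lower in knockout than in wild-type cells (27.3%, against 21.2% of all genes tested), with the smallest p-values for Arrdc4 (-2.10), Msrb1 (-1.69), Rrm1 (1.83) and Sesn1 (1.52), and 5 passed in a fit of the DI libraries alone and without knockout DI replicate 2 or either wild-type DI library. In untreated cells edgeR and DESeq2 each called 0 of the 33, while edgeR called 0.605% of all genes tested. Before adjustment 1 had an edgeR p under 0.05, against 3.34% of all genes tested higher and 7.3% lower.

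Cat was set beside 34 tested genes of 35 listed for peroxisomes, its usual compartment. Of these, 2 rose and 2 fell in wild-type DI cells (11.8% called, against 15.2% of all genes tested; median log2 change 0.17). Idh1, an isocitrate dehydrogenase of cytosol and peroxisomes, rose by 1.69 ± 0.22 (edgeR adjusted p = 0.00033) and Pex11a, a factor of peroxisome division, by 0.93 ± 0.23 (0.0183). Phyh, the phytanoyl-CoA hydroxylase, fell by 1.65 ± 0.25 and the membrane biogenesis factor Pex3 by 0.90 ± 0.25. Without wild-type DI replicate 2 or either untreated wild-type library, 1 rose and 1 fell. In knockout DI cells only Phyh was called (-0.90, edgeR adjusted p = 0.044; 2.94% of the list, against 8.48% of all genes tested), and it was not called without any of the 4 knockout libraries or either untreated wild-type library, while 2 of the list were called without either wild-type DI library. The DI effect differed between genotypes for Idh1, 4.01-fold smaller in knockout than in wild-type cells (edgeR adjusted p = 0.00299), and for Pex3 (1.28 ± 0.35 on the log2 scale, knockout minus wild type, 0.0438; 5.88% called, against 7.55% of all genes tested), and Pex3 was not called without 7 of the 8 libraries in turn, knockout DI replicate 1 being the exception. Under DI, 2 peroxisome genes were higher and 6 lower in knockout than in wild-type cells (23.5%, against 21.2% of all genes tested; 2 and 3 by DESeq2), with Idh1 at -2.28, Pex3 at 1.26 and Gnpat at -0.96. The number called was 2 to 5 with any 1 library left out, 5 with total-count scaling and 3 in a fit of the DI libraries alone. In untreated cells edgeR and DESeq2 each called 0 of the 34, while edgeR called 0.605% of all genes tested. Before adjustment 0 had an edgeR p under 0.05, against 3.34% of all genes tested higher and 7.3% lower.

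**Figure D5:**
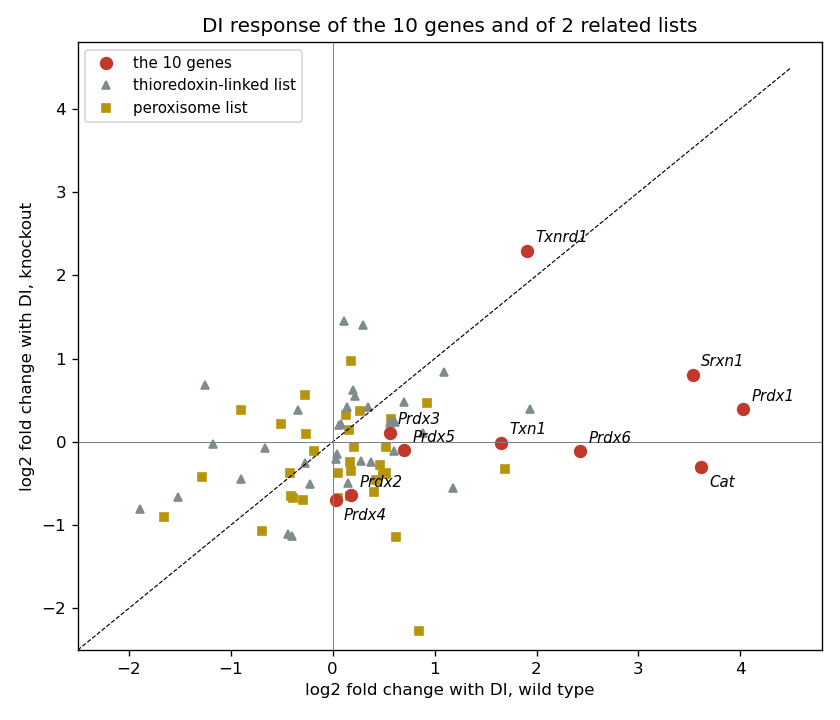
Log2 fold change with DI in knockout cells (y axis) against wild-type cells (x axis) for the 10 genes (red circles), thioredoxin-linked genes (triangles) and peroxisome genes (squares); the dashed line marks equal change. Txnrd1 lies near the line, while Prdx1, Cat, Srxn1, Prdx6 and Txn1 lie far to its right, between -0.30 and 0.81 on the y axis.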

How the data were processed

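Poly(A) RNA was turned into 3′-end, strand-specific libraries with sample barcodes, per the labels' protocols. The deposited file holds counts of reads per gene, made by the authors; the submitters' processing notes name STAR, HTSeq, DESeq2 and mm10, with no versions. The counting settings and annotation release are not given in the sources used here.

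All rows of the table entered library sizes. Genes passing edgeR's filterByExpr (minimum count 10; 11079 genes) were fitted together over the 8 libraries with TMM scaling, 1 mean per group, and tested with the quasi-likelihood F-test (edgeR 4.0.16, R 4.3.3). P-values were Benjamini-Hochberg adjusted over all genes tested, with calls under 0.05. The standard error is the absolute log2 fold change divided by the square root of F. The 5 comparisons were DI against untreated in each genotype, their difference (interaction), and knockout against wild type with DI and untreated; several share libraries. The fit was also run on simulated counts, with changes set in the wild-type DI group alone and the spread fitted to these data. It therefore cannot tell how many true changes the other comparisons would find for DI in knockout cells or between untreated genotypes.

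The alternatives were DESeq2 1.42.0, RLE scaling, total counts, no low-count filter, only the groups compared, a replicate block and leaving out each library. Genes, lists and tests were chosen with earlier results of these data known. All 10 genes are named in every comparison, up to 4 called genes with the smallest p per list and comparison (1 of them is not reported here), and the 3 genes most like each of the 10 among those with a mean of at least 10 CPM. Locations come from GENCODE M21 on mm10, and promoter windows from RefSeq. Same-numbered libraries did not deviate together beyond a correlation of 0.16 (WT DI with untreated) and 0.02, 0.02 and -0.02 in the other 3 pairs of groups, and the labels give the numbers no shared origin. Log2 CPM of replicates correlated across genes at 0.973 to 0.980 (Pearson r), and their counts differed beyond sampling noise (chi-square per degree of freedom 15.2 to 47.5).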

Additional observations from a re-analysis of the deposited data

Results flagged for a closer look

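A test of the difference itself found 5 of the 10 genes to respond to DI unequally in knockout and wild-type cells. All 5 had a smaller change in knockout cells. Of all genes tested, 7.55% were called, and 2.59% with a negative difference, whether DI raised them less or lowered them more in knockout cells. The difference of the log2 changes, knockout minus wild type, was -3.91 for Cat, -3.64 for Prdx1, -2.72 for Srxn1, -2.54 for Prdx6 and -1.67 for Txn1, with edgeR adjusted p of 0.000226, 0.000226, 0.00177, 0.0013 and 0.0102. Txn1 lost its call without untreated knockout replicate 1 (edgeR adjusted p = 0.0558). In each case the change in knockout cells lay between -0.30 and 0.81 and the change in wild-type cells between 1.65 and 4.03. Groups of 2 libraries are too small to look for a single library that stands apart.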

How the results depend on the processing

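Of 690 values of the 10 genes under alternatives, 652 kept their side of the threshold, while 33 lost and 5 gained a call. A reversal of direction with a call in either fit was found in 0. Changes of direction between uncalled values were counted among the 652. Of 276 counts of calls under alternatives, over the 10 genes, both lists and all genes, 198 stayed within 1.5 times the reported count, 65 were smaller and 13 larger than that allows. Without 1 library, the number of the 10 genes called ranged from 6 to 7 for DI in wild-type cells, 0 to 2 for DI in knockout cells, 4 to 5 for the interaction, 6 to 8 for knockout against wild type with DI and 0 to 2 untreated. Over all genes the same ranges were 806 to 1740, 100 to 1087, 252 to 922, 1189 to 2226 and 11 to 79. For DI in knockout cells, DESeq2 and the fit with no low-count filter called 2 of the 10 genes. RLE scaling called 1 of the 10 in untreated cells. With no low-count filter 15299 genes were tested in place of 11079. That fit called 1697 genes for DI in knockout cells, 1597 for the interaction and 397 in untreated cells. DESeq2 called 191 of the 11079 in untreated cells. The block for the replicate number gave 7, 1, 5, 8 and 2 of the 10 genes in the same order of comparisons and 1674, 931, 845, 2309 and 67 genes in all, so no call of the 10 genes changed; same-numbered libraries share only a number. Total counts in place of TMM moved the median log2 difference over all genes to 0.12 for knockout against wild type with DI, and calls of higher genes from 54 to 65.6% of all calls there and from 42.8 to 31.6% for DI in wild-type cells. The cause of these shifts was not tested.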
